A study of Bos taurus with 8 samples.

Results

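The miR-2284 and miR-2285 entries of a bovine microRNA (miRNA) array were examined in mammary tissue of a dairy and a beef breed. Members were all array entries whose name begins with bta-miR-2284 or bta-miR-2285, whatever the letter, copy number or arm. The rule uses names only and gave 49 of the 763 miRNAs on the array, 29 named miR-2284 and 20 named miR-2285. They were read by 99 of the 1657 probes. Of the 49 entries, 48 had 2 probes and 1, miR-2284m, had 3, and a probe was printed as 20 to 30 spots.

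The samples were mammary glands of 4 Holstein-Friesian (HF) heifers, of a breed kept for milk, and of 4 Limousin (LM) heifers, of a breed kept for beef. All animals were healthy, not pregnant and without clinical mastitis, received no treatment, and were aged 20 months by the sample characteristics but 2 years by the tissue protocol. Each gland's RNA, 100 ng of it, carried the Cyanine 3-pCp label, and was read on a separate single-colour Agilent array. The study's design names LM as the test and HF as the reference, so differences are given as LM minus HF.

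MicroRNAs are short single-stranded RNAs that guide Argonaute proteins to partly complementary messenger RNAs and thereby lower their translation or stability. The miR-2284 and miR-2285 genes form a large family described in cattle, in which many near-identical copies are scattered over the genome, so that a mature sequence can come from several loci. Their functions in the mammary gland are largely unknown, and most were named from sequencing of small RNA in bovine cells and tissues.

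The probes are shown first because the results turn on their likeness and on a single base. An Agilent miRNA probe is complementary to part of the mature miRNA, and longer and shorter probes of an entry cover nearly the same stretch. The probes of miR-2285t, the only member detected, differed by the last base, in capitals, which the shorter probe lacks. The third line is the reverse complement of the longer probe, written with T, that is, the stretch of target that it pairs with.
miR-2285t 17-base probe: ccaaaaagttcatccaG
miR-2285t 16-base probe: ccaaaaagttcatcca
miR-2285t 17-base probe, reverse complement: Ctggatgaactttttgg

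Other members share most of this sequence. The following probes of 17 bases were nearest to it, and are shown because they tell which sequences gave no signal beside one that did. Capitals mark bases that differ from the 17-base probe of miR-2285t.
miR-2285f: ccaaaaagttcatTcag
miR-2285b: ccaaaaagttcaCTcag
miR-2285q: ccaGaaagttcatTcag
miR-2285m: ccaaaaagttcatTTGC

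In the substitutions the base of the miR-2285t probe comes first, and positions count from 1 at the 5′ end of the probe. The miR-2285f probe differed by C14T alone. The miR-2285b probe differed by T13C and C14T, the miR-2285q probe by A4G and C14T, and the miR-2285m probe by C14T, C15T, A16G and G17C. Outside the family, 0 probes of 17 bases lay within 4 mismatches of the miR-2285t probe.

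The probes of the 2 name groups carried a shared core on opposite strands. The letters GAAC, read on the probe as printed, stood in a probe of 22 of the 29 miR-2284 entries (75.9%), of 0 of the 20 miR-2285 entries and of 24 of the 714 other miRNAs (3.36%). Their reverse complement GTTC stood in a probe of 0 miR-2284 entries, 19 miR-2285 entries (95%) and 43 other miRNAs (6.02%). The longer run CCAAAAAGTTC, which contains GTTC, was found in 7 of the 20 miR-2285 entries and in 0 miR-2284 entries or other miRNAs. Examples show every copy of the core in capitals, first of probes that read GAAC and then of probes that read GTTC.
miR-2284q: tccGAACGAACttttt
miR-2284x: aaaacccGAACGAACt
miR-2284j: aaaacctGAACGAACtt
miR-2285e: gccaaaaaGTTCGTTC
miR-2285k: caaaaaGTTCattccg
miR-2285h: cataaaGTTCgtttcgg
The 3 miR-2284 examples and miR-2285e hold 2 copies side by side.

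Member probes were AT-richer than most of the array. The median GC content was 41.2% in the probes of both name groups, with ranges of 25% to 57.1% for miR-2284 and 31.6% to 50% for miR-2285, against a median of 50% for all other probes. Probe length ran from 14 to 20 bases for miR-2284, from 15 to 19 for miR-2285 and from 9 to 23 for the others.

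The probes of the family were nearly silent on these arrays. Whether the miRNAs were absent from the glands was not tested. The scanner software calls each spot well above background or not. A probe counted as detected where this held for more than 50% of its spots, and an entry where any of its probes did. By that measure 1 of 49 members (2.04%) was detected on any array, against 299 of the 714 other miRNAs (41.9%). Of the entries from bta-miR-2286 to bta-miR-2499, which follow the family in number, 48 of 242 were detected (19.8%), and of those from bta-miR-2500 on, 26 of 72 (36.1%). Of the 763 miRNAs 300 were detected on at least 1 array and 232 on all 8.

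The arrays themselves gave usable signal. Each carried 45780 spots, of which 28.6% to 35.5% were well above background and 0 saturated, and 243 to 267 miRNAs were detected per HF array and 272 to 297 per LM array. All 6 epithelial markers examined (miR-200a, miR-200b, miR-200c, miR-141, miR-429 and miR-205) were detected on all 8 arrays, as were 4 of 5 leukocyte, both smooth muscle and all 3 stromal markers. The liver marker miR-122, both neural markers and the 1 adipocyte marker on the array, miR-193b, were detected on none. Of 6 skeletal muscle markers 0 were detected on all 8 arrays and 3 on none, so some muscle markers gave signal on part of the arrays. Of 3 erythroid markers 1, miR-451, was detected on all 8 and 2 on none. The 8 arrays shared 1 slide, on which all HF samples had the first position index and all LM samples the second, and the effects of breed and of position on the slide cannot be told apart. LM arrays were brighter: the 75th percentile of probes detected on all arrays, by which signals were scaled, was 557 to 939 intensity units for HF and 943 to 1579 for LM. HF 2 stood apart from the other arrays on the second principal component of the tested miRNAs (score -6.41, 16.2% of the variance), and the miR-2285t result is given with and without it.

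miR-2285t was the member with signal, and its signal was higher in the dairy breed. The array annotation (UMD 3.1) places the 17-base probe at chr29:29085668-29085684 and chr3:7929233-7929249 and assigns it to miR-2285r as well, so the loci could not be separated. In the RefSeq annotation of the ARS-UCD2.0 assembly, MIR2285T lies within the span of FCGR2B, which encodes an inhibitory Fc gamma receptor of B cells and myeloid cells, and MIR2285R within that of PKNOX2, which encodes a homeobox transcription factor. Exon or intron was not given by the tables used here, and host transcripts were not measured by these arrays.

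The mean spot signal of the 17-base probe, after background subtraction, was 30.4, 67.1, 47.3 and 33.5 intensity units on HF arrays 1 to 4. On LM arrays 1 to 4 it was 15.7, 16.9, 10.9 and 15.6. The breeds did not overlap, the lowest HF array lying above the highest LM array, and HF 2 was the highest array. The breed means were 44.6 ± 16.7 for HF and 14.8 ± 2.66 for LM (SD, n = 4 heifers each). Within an array the spots of this probe had SDs of 4.70 to 5.89 units on HF and 3.12 to 4.13 units on LM arrays.

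**Figure D1:**
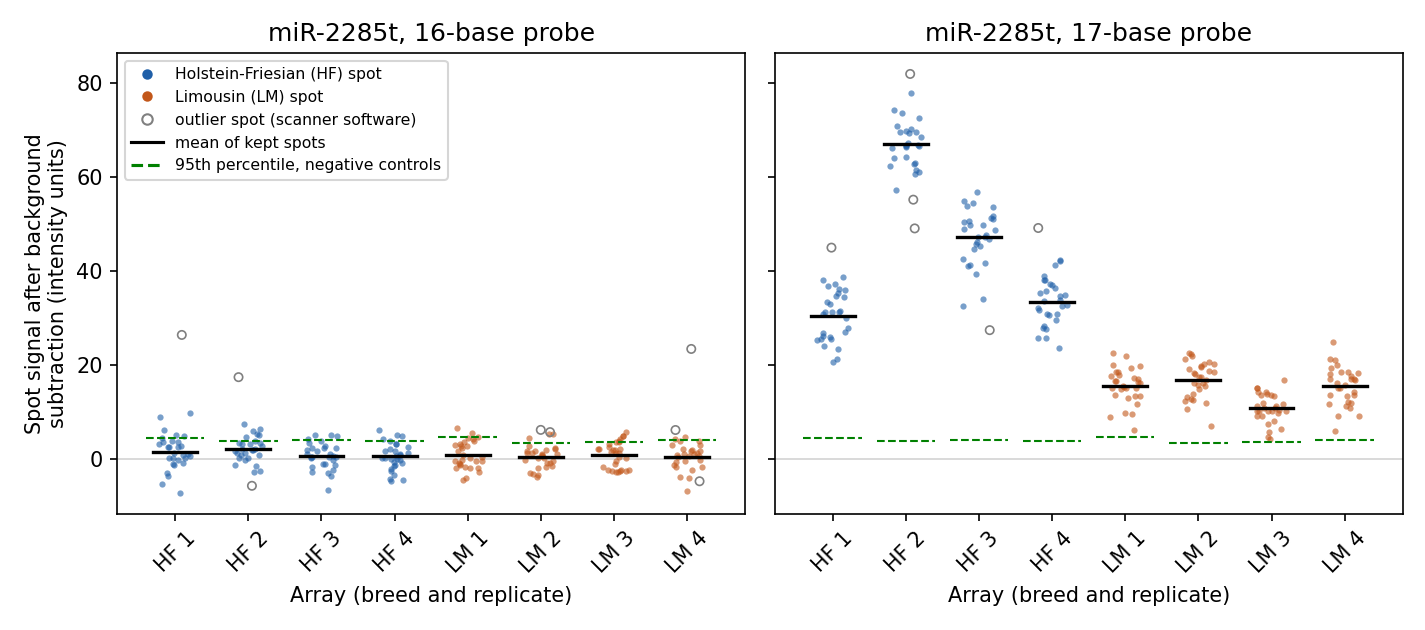
Spot signals of the 16-base (left) and 17-base (right) probe of miR-2285t on each array, in intensity units after background subtraction on a linear axis; filled points are kept spots (blue HF, orange LM), open circles spots left out as outliers, black bars the mean of kept spots, and dashed lines the 95th percentile of 1000 negative control spots. The 17-base probe averages 30.4 to 67.1 on HF and 10.9 to 16.9 on LM arrays, all above the dashed lines, while the 16-base probe stays between 0.560 and 2.28, below them.

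On every HF array 30 of 30 spots of the 17-base probe were well above background. On LM arrays 1 to 4 the number was 8, 15, 0 and 10 of 30, or 33 of 120 in all, so that LM 2 stood exactly at 50% and no LM array passed the detection limit. The LM signals were low but above the negative controls. Negative control spots averaged -1.43 to -0.228 units with a 95th percentile of 3.48 to 4.73, below the LM mean on every array. Every kept LM spot also passed the software's weaker test of being positive and significant against background, and the software called the miRNA detected on all 8 arrays.

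After scaling, the log2 signal of miR-2285t was 5.53, 6.85, 5.60 and 5.70 on HF arrays 1 to 4 and 3.68, 3.37, 3.47 and 3.59 on LM arrays 1 to 4. HF averaged 5.92 ± 0.63 and LM 3.53 ± 0.14 (SD, n = 4), again without overlap. How many of the 270 tested miRNAs also lacked overlap, by any measure, is not given here. Non-overlap is therefore not read as particular to miR-2285t. The log2 difference was -2.40 (SE 0.26, 95% interval -2.98 to -1.81), and all 4 LM arrays lay below every HF array. The Benjamini-Hochberg adjusted p was 4.4e-04 from limma over the 270 miRNAs tested. miR-2285t entered this test through its detection on the 4 HF arrays alone. Such a filter favours a lower LM value, so the p-value and the direction add no support beyond the signals themselves. Because the probe was not well above background on any LM array, the fold between the breed means was bounded. The bound was 4.45-fold higher in HF, from an HF mean of 5.92 against a mean LM limit of 3.77. It allows for LM signal below the detection limit and not for sampling error. The 95% interval of the fitted fold was 3.51 to 7.89, so folds under 4.45 lie within it. The limit took, on each LM array, the higher of the probe's own signal and the lowest signal among detected probes.

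The size depended on the processing, while the direction and the call held in each setting named here. Without any scaling the log2 difference was -1.54 (limma adjusted p = 8.5e-06) and the bound 2.46-fold. Without HF 2 the difference was -2.08 (limma adjusted p = 8.2e-07) and the bound 3.57-fold. The background mattered most: with normexp correction and an offset of 50 the difference was -1.25 (limma adjusted p = 2.8e-04), and with no background correction -1.33 (limma adjusted p = 3.0e-04). Both of these leave a background level in the signal, which scaling then divides by a percentile that was higher on LM arrays. That lowers any probe near background in LM, so these values add no support for the direction. The mean of both probes gave -1.61 (limma adjusted p = 0.0047). The bound was not computed for these 3 settings.

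Calls were frequent on these arrays, against which the single member has to be read. Of the 270 tested miRNAs 113 passed an adjusted p of 0.05 in either direction (41.9%), and 76 of them were lower in LM (28.1%). That split turned with the processing: 30 were lower and 104 higher by the percentile over all probes, 2 and 173 without scaling, 31 and 49 after correcting each array for GC content and probe length, and 28 and 81 in the deposited value table. It was 43 and 55 after quantile normalization, and 146 and 26 with normexp. Of the 49 members 1 was tested and it was lower. It passed the detection filter through HF alone, which favoured that direction, whereas 232 of the 270 were detected on all 8 arrays. The shares by direction are therefore no like background for it. The other 48 members were not tested because they were detected on no array, so the count describes miR-2285t and not the family. The median log2 difference of all tested miRNAs was -0.07, and miR-2285t had the second most negative value, rank 2 of 270, which the filter also favoured. In the fit on single probes 199 of 495 passed (40.2%), 131 of them lower in LM (26.5%). There the 17-base probe, the only member probe tested, had a difference of -2.40 (SE 0.26, limma adjusted p = 3.9e-04).

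The other probe of miR-2285t gave no detectable signal. The 16-base probe had mean signals of 1.69, 2.28, 0.821 and 0.676 units on HF arrays 1 to 4 and 0.985, 0.585, 1.04 and 0.560 on LM arrays 1 to 4. The breed means were 1.37 ± 0.756 and 0.792 ± 0.254 (SD, n = 4), the ranges of the breeds overlapped, and 2 of 120 HF and 1 of 120 LM spots were well above background. The breed difference therefore rests on 1 probe, and the sequence lines given for miR-2285t show that it has 1 base more than the silent probe. Such a split between nested probes was the less common case on the array. Of 894 probe pairs that differ by the last base, the longer probe was detected on all 4 HF arrays in 250; the shorter was then detected on all 4 as well in 197 (78.8%) and on none in 32 (12.8%), miR-2285t among them.

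In bulk tissue, fewer cells of a type and less RNA per cell cannot be told apart. Markers of other cell types were therefore set beside miR-2285t, by the same fit. By that fit 37 of all 270 tested miRNAs were higher in LM and 76 lower. Of the 4 leukocyte markers tested 2, miR-142-5p and miR-155, were higher in LM and 0 were lower. The summed scaled signal of the 5 on the array was 1027 to 1540 in HF and 1478 to 1896 in LM, and miR-142-3p was detected on no array. Of the 3 stromal markers 2, both arms of miR-199a, were higher in LM and 0 lower (summed signal 4360 to 4854 in HF and 5589 to 6829 in LM). Of the 6 epithelial markers 0 passed the test in either direction (17792 to 19968 in HF and 18822 to 20644 in LM). Of the 2 smooth muscle and myoepithelial markers, miR-143 and miR-145, 0 passed the test. Their summed signal was lower in LM without overlap (4541 to 4955 in HF and 3734 to 4208 in LM), the direction of miR-2285t. The 1 erythroid and the 1 skeletal muscle marker tested did not pass either. The summed erythroid signal was 42.4 to 149 in HF and 42.5 to 59.6 in LM, and that of skeletal muscle 53.5 to 98.6 and 45.5 to 99.3. Endothelial, adipocyte, liver and neural markers were not tested.

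The marker calls depended on the processing. The leukocyte and the stromal calls each fell from 2 to 1 with the replicate number as a block and without HF 1, HF 4, LM 1 or LM 4, and the leukocyte calls also with the correction for GC content and length. With normexp and with no background correction 1 leukocyte marker was lower in LM beside the 2 that were higher. Without HF 2, 2 of 6 epithelial markers were higher in LM; by the percentile over all probes 3 were higher, without scaling all 6, and 1 was lower after quantile normalization and 1 with array weights. The correction for GC content and length and the deposited table each gave 1 higher. Without scaling both smooth muscle markers were higher in LM, and by the mean of all probes of a miRNA 1 was lower. The leukocyte and stromal calls also rose: without scaling all 4 leukocyte and all 3 stromal markers tested were higher in LM. By the percentile over all probes all 3 stromal markers were higher. Of all 270 tested miRNAs 173 were higher in LM without scaling. The part of cell makeup in the miR-2285t result was not tested.

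The near relatives of the detected probe gave no signal. The miR-2285f probe of 17 bases, with the single substitution C14T, had 0.189, 0.561, -0.712 and -0.202 units on HF arrays 1 to 4 and -0.680, 0.0717, -1.15 and -1.25 on LM arrays 1 to 4. Its breed means were -0.0411 ± 0.545 for HF and -0.750 ± 0.601 for LM, and the breeds overlapped. The miR-2285b probe averaged -0.265 ± 0.445 in HF and -0.553 ± 0.482 in LM. For miR-2285q the means were -0.684 ± 0.580 and -0.837 ± 0.398, and for miR-2285m -0.896 ± 0.136 and -1.43 ± 0.741 (SD, n = 4 throughout). Spots well above background numbered 2 of 240 for miR-2285f, 0 for miR-2285b, 1 for miR-2285q and 2 for miR-2285m, against 153 of 240 for miR-2285t. The 29 member probes of 17 bases thus held 1 that was detected.

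**Figure D2:**
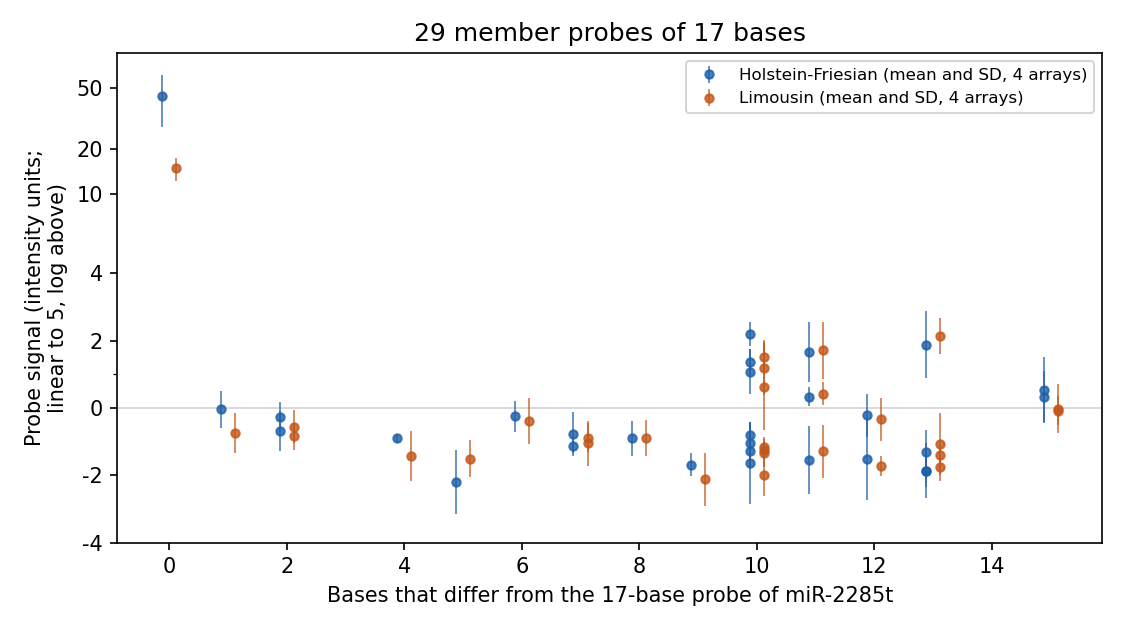
Mean probe signal in intensity units (symmetric log axis, linear to 5 and logarithmic above) of the 29 member probes of 17 bases against the number of bases by which each differs from the 17-base probe of miR-2285t; points are breed means and bars SDs over 4 arrays. The probe at 0 differences stands at 44.6 in HF and 14.8 in LM, and the probe at 1 difference at -0.0411 and -0.750.

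The longer miR-2285f probe, of 18 bases, was among the highest undetected member probes. Its signal was 1.68, 0.502, 1.95 and 0.257 units on HF arrays 1 to 4 and 3.68, 3.84, 1.99 and 3.03 on LM arrays 1 to 4. The breeds just failed to overlap, with LM higher (HF mean 1.1 ± 0.84, LM 3.1 ± 0.84), on the signal before scaling. After the scaling used for miR-2285t the breeds overlapped, with log2 values of 1.36, 0.00, 1.00 and 0.00 on HF arrays 1 to 4 and 1.59, 1.23, 1.02 and 1.23 on LM arrays 1 to 4. Among all 1095 probes detected on no array, 75 (6.85%) did not overlap between breeds by mean signal before scaling, 15 of them higher in HF (1.37%), against 2 of the 98 undetected member probes. The other was the 16-base probe of miR-2285c, higher in HF, at -1.52 to -0.798 in HF and -2.42 to -1.99 in LM, both below 0. By the median of the spots the share was 6.76% over all such probes, and 1.92% higher in HF, again with 2 member probes, both higher in HF, that of miR-2285c and the 16-base probe of miR-2285i (-1.59 to -1.23 in HF, -2.29 to -1.72 in LM). All of these probes lay at or below 3.84 units. Single negative control spots had their 95th percentile at 3.48 to 4.73, but a mean over spots varies less than a single spot. That limit therefore cannot tell whether such a mean differs from the controls, and no level is drawn from these probes.

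miR-2284q came nearest to detection among the other members, and on HF 1 rather than in a breed. Its 16-base probe had 11.5, 2.72, 4.05 and 0.423 units on HF arrays 1 to 4 and 5.37, 0.737, 6.77 and 1.43 on LM arrays 1 to 4. The breeds overlapped fully, with HF 1 highest and HF 4 lowest. On HF 1, 5 of 30 spots were well above background, with signals of 18.6, 19.5, 20.8, 21.9 and 23.2, the last 3 of them outliers by the software. The software called miR-2284q detected on HF 1 and on none of the other 7 arrays. Its 17-base probe stayed below 0 on all 8 arrays, from -2.76 to -0.270, so here the shorter of the nested probes carried the signal.

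The remaining 46 members besides miR-2284q and miR-2285f had no mean probe signal above the 95th percentile of the negative controls on any array. Members were ordered by the mean log2 ratio of signal with background to background, taking the higher probe of each entry. The highest undetected members were miR-2284q (0.111), miR-2284t-5p (0.061), miR-2285f (0.059), miR-2284x (0.058) and miR-2284z (0.053). The 16-base probe of miR-2284t-5p averaged 2.48 ± 0.525 units in HF and 1.86 ± 0.945 in LM. That of miR-2284x averaged 2.51 ± 0.625 and 1.61 ± 0.505, and the 19-base probe of miR-2284z 1.89 ± 0.449 and 1.84 ± 0.323. The breeds overlapped in each of these 3.

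By this order, which leaves out the lower probe of each entry, the 5 lowest members were miR-2285 entries. The ratio was -0.056 for the 17-base probe of miR-2285h, -0.046 for miR-2285g, -0.044 for miR-2285s, -0.042 for the 17-base probe of miR-2285c and -0.040 for miR-2285i. The miR-2285h probe averaged -1.68 ± 0.330 units in HF and -2.12 ± 0.786 in LM, and miR-2285h was the only member without a single spot well above background.

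**Figure D3:**
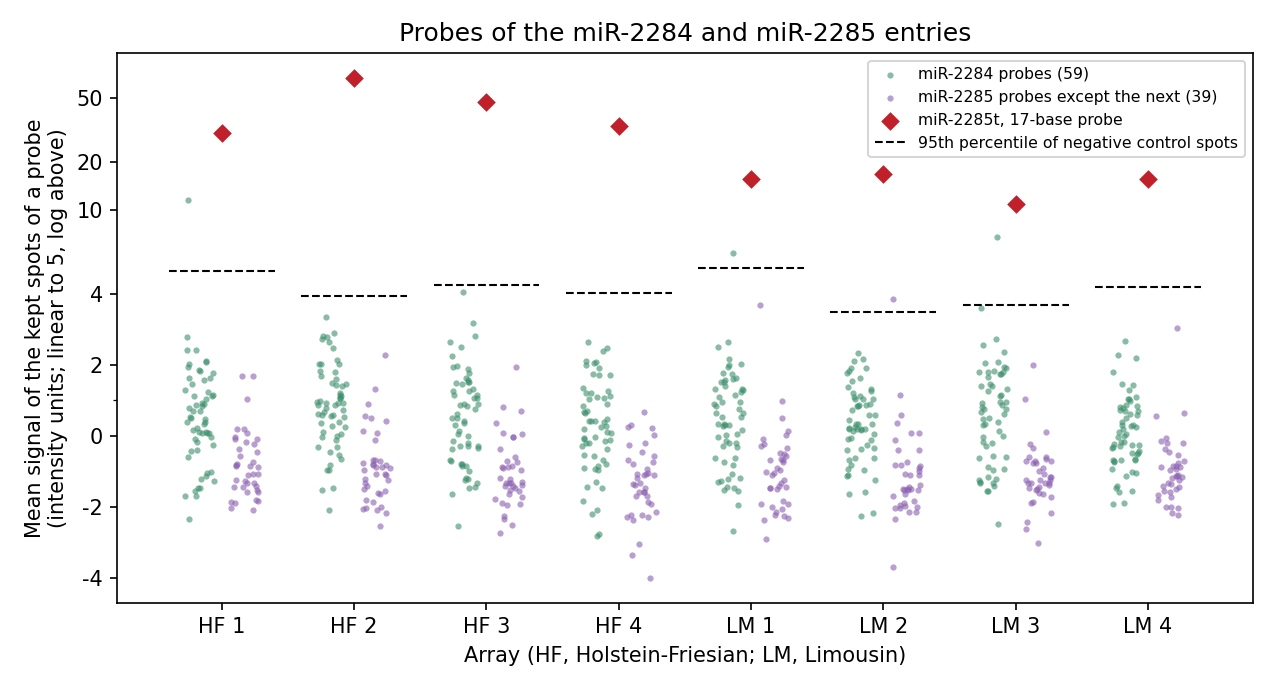
Mean signal of the kept spots of each member probe on each array, in intensity units (symmetric log axis, linear to 5 and logarithmic above), for 59 miR-2284 probes (green), 39 miR-2285 probes (purple) and the 17-base miR-2285t probe (red diamonds); dashed lines give the 95th percentile of the negative control spots. The red diamonds lie above the lines on all 8 arrays, and the purple points lie mostly below 0.

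Below the detection limit the 2 name groups sat at different levels on every array. The median over the mean signals of the 59 miR-2284 probes was -0.0164 to 0.875 units on the 8 arrays. By another measure, the median of a probe's spots averaged over the arrays, 37 of these probes (62.7%) lay above 0. The median over the mean signals of the 39 undetected miR-2285 probes was -1.44 to -0.868, and 3 (7.69%) had an averaged spot median above 0. The 997 other undetected probes had array medians of -0.743 to -0.253, with 423 (42.4%) above 0 by the averaged spot median. On each of the 8 arrays the miR-2284 median was the highest of the 3 and the miR-2285 median the lowest. Probes of a group share sequence, as the core motifs show, and are not independent of each other, so no test was made.

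Single bright spots occurred in nearly all undetected members. Of 23040 spots of the 48 undetected members 140 (0.608%) were well above background, and the software marked 138 of these as outliers. Among 8000 negative control spots 45 (0.562%) were well above background. The member spots numbered 60 of 11520 in HF and 80 of 11520 in LM. They were scattered: of 776 pairs of a probe and an array 653 had none, 110 had 1 and 13 had 2 or more, with at most 5.

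**Figure D4:**
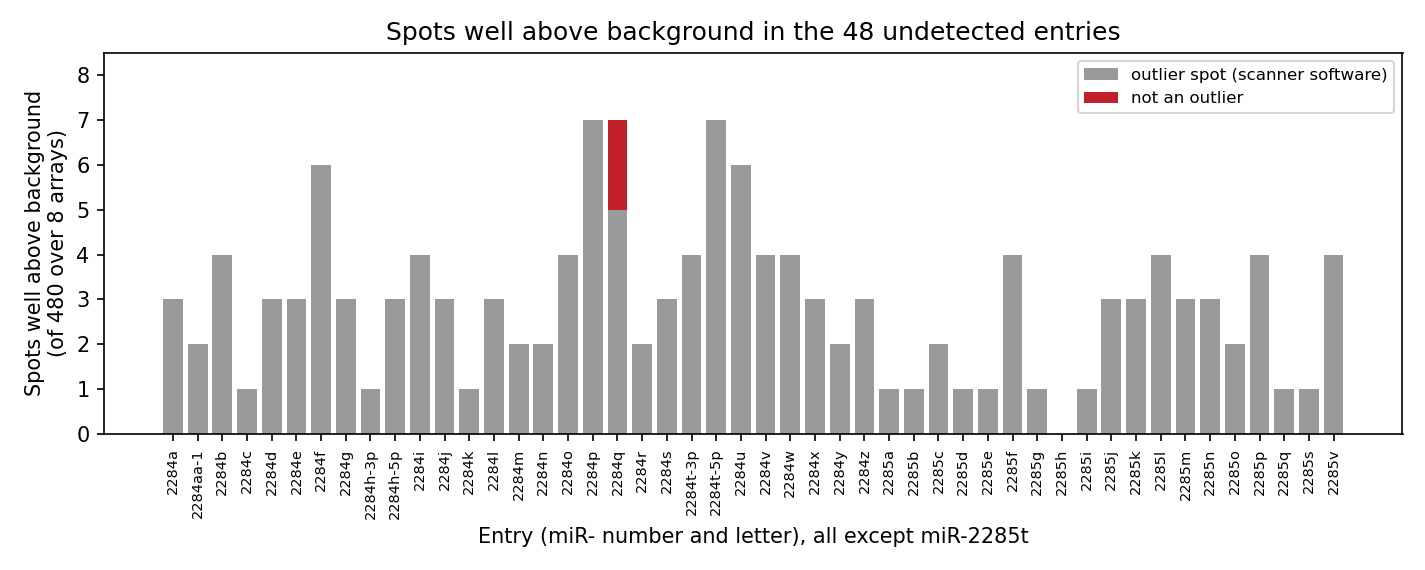
Number of spots well above background over all 8 arrays, of 480 per entry, for each of the 48 undetected members; grey parts of a bar are spots marked as outliers by the scanner software and red parts spots that were not. The 140 spots spread over 47 entries, and the 2 that were not outliers belong to miR-2284q.

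Of these spots 7 exceeded 1000 units, and all 7 were outliers. The brightest was a spot of miR-2285l on LM 3, at 77907 units, while the kept spots of that probe averaged -1.52. A spot of miR-2284v reached 31721 on LM 2, and a spot of the same entry 3515 on LM 4. Others belonged to miR-2284a (11067), miR-2285k (10871) and miR-2284m (4264) on LM 2 and to miR-2285f (6781) on HF 3. Each was the only spot well above background among the 20 or 30 of its probe on that array. A detection call from a single spot would therefore have given 48 of 49 members, 31 in HF and 42 in LM.

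Other detection measures kept the probes of the family near silence. With the software's own call per miRNA 2 members were detected, miR-2285t on all 8 arrays and miR-2284q on HF 1. Asking that more than 50% of the spots be positive and significant gave 4. These were miR-2285t on all 8 arrays, miR-2284q on 2 HF and 2 LM arrays, miR-2284t-5p on 1 HF array and miR-2285f on 1 LM array. A mean signal above the 95th percentile of the negative controls gave 3, namely miR-2285t on all 8 arrays, miR-2284q on 1 HF and 2 LM arrays and miR-2285f on 1 LM array.

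The value table deposited with the series, on a log2 scale, also set miR-2285t apart. Of its 392 member values 383 stood at the table's value for an undetected miRNA, and the 9 others were the 8 of miR-2285t and that of miR-2284q on HF 1 (-2.81). For miR-2285t the deposited log2 values were -1.40, 0.06, -1.26 and -1.17 on HF arrays 1 to 4 and -2.91, -3.21, -3.11 and -3.02 on LM arrays 1 to 4, without overlap. Fitted in the same way, they gave a difference of -2.12 (SE 0.30, limma adjusted p = 0.0020), from means of -0.94 ± 0.67 and -3.06 ± 0.13 (SD, n = 4).

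The members are spread over the genome. By the array annotation the longest probe of an entry had 1 position in UMD 3.1 for 32 members, several for 16 and none listed for miR-2285s, with up to 7 for miR-2284y, miR-2284z and miR-2285n. Together the probes fell on 27 chromosomes. Probes were shared by name in 3 cases: that of miR-2285t with miR-2285r, that of miR-2285b with miR-2285u, and that of miR-2284aa-1 with its copies numbered 2 to 4. In RefSeq's annotation of ARS-UCD2.0, 48 of the 49 entries were matched by name, all but miR-2284d, to 82 genes. The annotation held 191 genes named MIR2284 or MIR2285 (43 and 148) on 30 chromosomes. Of these, 125 (65.4%) lay within the span of a protein-coding gene, beside 549 of 841 other miRNA genes (65.3%).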

How the data were processed

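MicroRNA was measured in 4 HF and 4 LM mammary glands on single-colour Agilent arrays, 1 array per heifer. Breed and replicate were taken from the sample titles, and per the labels these are biological replicates. Per the file headers, the authors extracted the scans with Agilent Feature Extraction 10.10.1.1; the deposited intensity is the spot signal minus a spatially fitted background, so it can fall below 0. The deposited value table holds log2 values. It equals the log2 of the software's total signal per miRNA less 1 constant for each array, to within 9.74e-06, and its normalization is not given in the sources used here. The software's spot calls (well above background, positive and significant, outlier, detected) were used as deposited.

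Control spots and outlier spots were left out and the spots of a probe averaged. Each array was scaled to the 75th percentile of its 429 probes that all 8 arrays detected, values under 1 were set to 1, and log2 was taken. The probe of highest mean stood for its miRNA. The 270 miRNAs, and separately the 495 probes, detected on all 4 arrays of a breed were fitted in R 4.3.3 by limma 3.58.1 (lmFit, eBayes), with breed as the term and Benjamini-Hochberg adjustment at 0.05, and the steps were tested on simulated data. Named members were those detected by either call and the 5 highest and 5 lowest undetected ones; those whose breeds did not overlap, with a bright single spot or near in sequence to miR-2285t were named after their values were seen. Members, marker lists and tests were chosen with earlier results of these data known. Mature miRNA sequences were not used here, so members are not grouped by seed. Titles give both breeds the numbers 1 to 4, and same-numbered samples did not deviate together (correlations -0.306, -0.249, -0.454 and 0.316), so they were not paired. Alternatives covered scaling, background, floor, detection, probe summary, variance model, probe GC content and length, the deposited table and each array left out; those of the bound on the fold, of the count of detected members with an array left out and of the marker lists were added after the data were seen. The number of arrays limits the precision.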

Additional observations from a re-analysis of the deposited data

Results flagged for a closer look

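On the scaled log2 scale the HF 2 value of the 17-base probe of miR-2285t, 6.85, lay far from the other 3 HF values, which ran from 5.53 to 5.70, by Dixon's criterion for 4 values. It was 1 of 14 groups of values examined for the 3 members named in detail, and chance gives about 1 in 20. On the unscaled signal HF 2 was highest as well, at 67.1 units, but did not meet the criterion. HF 2 also had the lowest scaling percentile, 557, of the 8 arrays. Without it the LM minus HF difference was -2.08 (limma adjusted p = 8.2e-07).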

How the results depend on the processing

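The LM minus HF difference of miR-2285t kept its direction and its call in all 23 alternatives for the miRNA and all 21 for the probe. With 1 array left out it was -2.52 to -2.08 in both fits. Under the other settings it was -2.40 to -1.25 for the miRNA and -2.41 to -1.25 for the probe, and limma adjusted p for the miRNA ran from 8.2e-07 to 0.0050. Restricting the test to miRNAs detected on all 8 arrays gave no value, since miR-2285t was then not tested. In every other setting it entered through its detection on HF arrays, which favours a lower LM value. With normexp and with no background correction, scaling also lowers any probe near background in LM, so those settings add no support for the direction. The bound on the fold between the breed means was 3.57 to 4.84 with 1 array left out and 2.46 without scaling. The number of tested miRNAs past the threshold moved more. It was 175 without scaling, 172 with normexp, 170 without background correction, and 71 (without LM 1) to 150 (without HF 2) with 1 array left out, with 74 without HF 4. Scaling also moved its split, from 37 higher and 76 lower in LM to 104 and 30 by the percentile over all probes, 55 and 43 after quantile normalization, 173 and 2 without scaling, and 81 and 28 in the deposited table. The causes were not tested. The replicate number as a block gave -2.40 for miR-2285t (limma adjusted p = 4.4e-04) and 84 calls, and with the correction for GC content and length -2.32 and 61 calls; replicate 4 alone correlated best with its own number. Members detected numbered 2 by the software's call, 48 by any spot, 4 by positive and significant spots and 3 by the negative control limit. Signals near those of the negative controls limit all other members to statements on detection.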
